A study of Sus scrofa with 63 samples.

Results

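The array probes described here, 149 in number, gave a signal in fetal pig jejunum that differed between the Meishan (MS) and Large White (LW) breeds in the same direction at days 90 and 110 of gestation, with both reciprocal crosses in between. They were chosen by the group means of the authors' log2 values. A probe qualified when MS minus LW had the same sign at both days and the means of both crosses lay strictly between the purebred means at each day, which 3448 of 39446 probes did. The 150 probes whose smaller daily difference was largest were taken, and the rule set 1 of them aside. In the authors' values the smaller difference of the members ran from 1.30 to 4.98 on the log2 scale. The MS - LW difference, its stability between days and the place of the crosses are therefore given below as a description, with no test.

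The 63 fetuses were males. Each sow, MS or LW, had received semen of both breeds at once, so that litters held purebreds and crosses. LW and MS are the purebreds, LWMS fetuses had a LW sire and a MS sow, and MSLW fetuses had a MS sire and a LW sow. There were 9 LW, 9 LWMS, 8 MSLW and 6 MS fetuses at day 90, and 9 LW, 9 LWMS, 6 MSLW and 7 MS fetuses at day 110. Each array carried RNA of a whole middle segment of jejunum of 1 fetus, so fewer cells of a type and less RNA per cell cannot be told apart. Litter mates were treated as independent, since the sow did not enter any fit, and p-values may be too small for that reason.

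A microarray probe of this kind is a synthetic strand of 60 bases that pairs with labelled RNA, and it reads only the stretch of transcript that it matches. Several genes are read by more than 1 probe, which allows a breed difference at 1 stretch to be set beside the other stretches of the same gene. When a difference between breeds is inherited additively, a cross is expected between its parents, whichever breed was the dam.

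Values below are log2 signals relative to the 75th percentile of their own array, called relative log2 signals, and differences are on this log2 scale unless the authors' values are named. Between 51.2% and 87.6% of the probes of an array were well above background. The tissue label was checked on enterocyte markers, of which FABP1, FABP2, VIL1, APOA4, APOB, ANPEP and LCT each had a probe well above background on all 63 arrays. The single probe of sucrase-isomaltase (SI) reached this on 24 arrays, and all smooth muscle markers had a probe that reached it on 63.

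Some fetuses stood apart at the members. On a scale where the LW mean of the day is 0% and the MS mean is 100%, the median position of a fetus over the 149 members lay between 28.1% and 47.1% in LWMS at day 90 and between 35.4% and 49.1% at day 110. MSLW fetuses lay between 30.2% and 44.1% at day 110 and, for 7 of the 8 fetuses, between 28.8% and 41.9% at day 90. The fetus labelled MSLW 450 lay at -1.03%, inside the span of the LW fetuses of day 90 (-7.02% to 7.76%). It was nearer to the LW mean than to the mean of the other MSLW fetuses at 111 of 149 members, where the other MSLW fetuses of day 90 were so at 26 to 42. It entered the selection as a cross, as labelled. The study told crosses from purebreds by genotyping microsatellites, and those genotypes were not used here. MS fetus 632 of day 110 lay at 84.3%, below the other MS fetuses of that day (100.9% to 111.5%), and was nearer to the LW mean than to its own group at 47 members against 8 to 16 in the others of that day. Its array had the lowest correlation with the rest of its group (0.917, where the median array had 0.984). MS fetus 532 of day 90 lay at 86.8% (others of that day 98.7% to 110%) and was nearer to the LW mean at 26 members against 4 to 18, and its array had 1417 spots flagged as outliers and a correlation of 0.953. The fetuses 484 and 469, both LW, which the study left out of its fold changes, were nearer to the MS mean at 20 and 12 members, where LW fetuses ranged from 1 to 20. Counts without these fetuses are given below or with the effects of the processing.

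The sequences of the probes that carry the main contrasts follow. The first sets show, for SELENOF, CYCS, RANBP1 and GBP2, a member and a second probe that overlaps it by 30 to 54 bases and gave a smaller difference between the breeds or one of opposite sign. In the SELENOF and CYCS pairs capitals mark the bases that differ within the shared stretch; in the RANBP1 and GBP2 pairs the shared stretch is identical and capitals mark the ends that the partner does not cover.
SELENOF member: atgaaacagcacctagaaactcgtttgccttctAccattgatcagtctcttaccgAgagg
SELENOF second probe: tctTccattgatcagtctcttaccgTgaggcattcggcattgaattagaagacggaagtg
CYCS member: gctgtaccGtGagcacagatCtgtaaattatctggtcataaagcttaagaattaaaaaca
CYCS second probe: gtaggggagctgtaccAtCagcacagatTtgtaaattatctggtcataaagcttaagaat
RANBP1 member: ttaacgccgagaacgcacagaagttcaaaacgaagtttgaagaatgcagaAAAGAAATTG
RANBP1 second probe: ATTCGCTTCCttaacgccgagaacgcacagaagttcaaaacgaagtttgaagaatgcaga
unnamed member: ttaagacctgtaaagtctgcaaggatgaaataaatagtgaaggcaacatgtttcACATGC
GBP2 probe: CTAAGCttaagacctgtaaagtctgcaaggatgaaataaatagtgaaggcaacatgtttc

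The next set shows members of the largest differences and of gene families. Capitals in the AADAT pair mark the longest run of bases that both probes share.
unnamed member of the largest difference: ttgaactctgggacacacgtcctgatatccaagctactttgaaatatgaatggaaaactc
AADAT first member: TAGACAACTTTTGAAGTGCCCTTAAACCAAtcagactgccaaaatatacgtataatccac
AADAT second member: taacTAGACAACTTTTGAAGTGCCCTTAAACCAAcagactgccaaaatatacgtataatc
MTFP1, both members: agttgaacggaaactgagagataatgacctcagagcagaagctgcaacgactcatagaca
CYP2C42 member: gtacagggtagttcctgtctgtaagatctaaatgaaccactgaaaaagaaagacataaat
CYP2C34 member: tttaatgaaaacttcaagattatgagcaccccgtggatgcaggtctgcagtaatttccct
CYP2C49 member: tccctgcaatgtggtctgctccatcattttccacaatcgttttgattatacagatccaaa
ITIH4 first member: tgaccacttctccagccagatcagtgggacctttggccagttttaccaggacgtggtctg
ITIH4 second member: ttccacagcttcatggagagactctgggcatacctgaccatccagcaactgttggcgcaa

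Of the 149 members, 53 were higher in MS and 96 lower. A gene name was found for 97 of them, which stand for 83 genes, and 52 stayed unnamed. In the relative log2 signals the median size of the MS - LW difference was 2.51 at day 90 and 2.50 at day 110, and the differences of the same member at both days lay a median of 0.37 apart. The fetuses of MS and LW did not overlap at both days at 74 members (49.7%), against 0.570% of all 40515 probes tested, a contrast that the rule used. At 63 members every array of all groups was well above background, whereas at 7 members all arrays of the lower breed failed this criterion at both days. The last member inside was EYA3 (-1.46 and -1.30 at days 90 and 110 in the authors' values) and the first probe outside was unnamed (-1.29 and -1.61).

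Among metabolic enzymes, AADAT, which transaminates aminoadipate and kynurenine, had the largest difference of a named gene. Its first probe ran from -8.57 to -4.26 (median -8.03) in LW and from -1.20 to 1.11 (median -0.01) in MS at day 90. At day 110 it ran from -8.26 to -4.97 (median -6.86) in LW and from -0.54 to 1.31 (median 0.53) in MS. No LW fetus overlapped with MS, and no LW array was well above background, so MS was at least 41.7-fold higher at day 90 and at least 37.0-fold higher at day 110. LWMS spanned -6.66 to 0.56 (median -1.19) and MSLW -7.92 to -0.98 (median -1.38) at day 90; the lowest MSLW value was that of fetus 450. The largest difference of all members was that of an unnamed probe with higher signal in LW, by at least 65.8-fold at day 90 and at least 72.9-fold at day 110.

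Cytochromes P450 of the CYP2C subfamily oxidise drugs, steroids and fatty acids. CYP2C42, CYP2C34 and CYP2C49 each had a member, all lower in MS, and in the RefSeq gene table of Sscrofa11.1 they are neighbours with 2 to 9 other genes between each pair. CYP2C42 ran from 2.0 to 2.57 (median 2.43) in LW and from -8.09 to 0.29 (median -1.69) in MS at day 90, without overlap. At day 110 it ran from 2.14 to 3.57 in LW and from -6.62 to -0.25 in MS, again without overlap. CYP2C34 ran from -0.77 to 2.81 in LW and from -6.61 to -2.19 in MS at day 90, but at day 110 both breeds overlapped, with -3.71 to 2.74 in LW and -6.91 to 0.85 in MS. MS fetus 409 held the highest of these MS values, and the next was -4.98. CYP2C49 ran from 1.55 to 3.41 in LW and from -2.53 to -0.84 in MS at day 90 and overlapped at day 110. Probes of this subfamily can share signal with near-identical copies, which leaves the assignment to 1 gene uncertain.

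Members for mitochondrial and protein-folding genes included MTFP1, CYCS and SELENOF. MTFP1, a protein of mitochondrial fission, had 2 members of identical sequence. The first ran from -0.37 to 0.89 (median 0.04) in LW and from -4.88 to -2.24 (median -4.66) in MS at day 90, and from 0.53 to 1.93 in LW and from -5.93 to -3.88 in MS at day 110. Both crosses lay near LW, with medians of -0.69 and -0.85 at day 90. CYCS, the electron carrier cytochrome c, ran from 2.44 to 4.79 in LW and from -4.99 to 2.60 (median -2.77) in MS at day 90, with overlap. At day 110 it ran from 2.98 to 4.28 in LW and from -4.26 to 3.71 (median -1.07) in MS. The MS fetuses were thus spread between a low level and the level of LW. SELENOF, a selenoprotein of the endoplasmic reticulum, ran from -6.47 to 0.00 (median -5.08) in LW and from 1.24 to 1.89 in MS at day 90. At day 110 it ran from -6.90 to -0.75 in LW and from 0.32 to 2.11 in MS, without overlap at either day.

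The remaining named genes of large differences had varied roles. BCL2L15, a BCL2 family member linked to apoptosis, ran from -2.34 to -0.76 in LW and from 2.44 to 3.59 in MS at day 90, and from -1.51 to 1.07 in LW and 1.74 to 4.85 in MS at day 110. BCAS2, a spliceosome component, had MS - LW differences of -4.97 ± 0.47 (SE) at day 90 and -5.09 ± 0.45 at day 110. TMOD3, which caps actin filaments, had differences of -4.21 ± 0.37 and -4.69 ± 0.36. PIP4K2A, a phosphoinositide kinase, had differences of -5.75 ± 0.34 and -4.20 ± 0.32. Purebred fetuses did not overlap at either day for these 4 genes. HRASLS5, a phospholipase and acyltransferase, was higher in MS, but MS fetus 632 lay at -6.62 among the LW values of day 110 (-8.10 to -3.83).

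Other probes of the same genes gave the comparison that the rule called for. The array held 139 other probes of the 83 genes, of which 128 passed the filter on dim probes, for 52 genes. They were measured on the same fetuses as the members. Probes of these genes that the rule had itself selected count as members and are not among them. At 6 genes all array probes, 2 or more, were members, so these genes are absent from the comparison. The selection thus lowers the share of other probes called and the ratios given here. Of these 128, 11 (8.59%) differed between MS and LW at both days in the direction of the member (limma, adjusted p of at most 0.01 and a log2 difference of at least 0.5 at each day), and 1 differed in the opposite direction. Over all probes tested, 0.607% were higher in MS at both days and 1.39% lower. The 11 probes belonged to 9 genes, and none was called for the other 43. The called RANBP1 probe has the same 60 bases as the member, and 10 probes were called without it. The median over genes of the other probes' difference was 3.14% of that of the member. At 114 of the 128 other probes the 95% confidence interval of the difference, averaged over both days, stayed below 50% of that of the member, and at 10 the difference itself reached 50% or more.

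The genes whose other probes came closest to the member were CYP2C49, CD46, ABCC9, SLC12A1 and CYP2C34. For CYP2C49 the member differed by a mean of -3.67 over both days, and its 3 other probes by -4.05 to -3.38, all called. CD46, which protects cells from complement, was higher in MS by 1.88 in the member and by 1.68 in its other probe. ABCC9, a regulatory subunit of ATP-sensitive potassium channels, was higher by 1.74 and 1.46. SLC12A1, a sodium, potassium and chloride cotransporter, was lower in MS, with -1.98 in the member and -1.60 in the other probe. For CYP2C34 the values were -5.50 in the member and -3.56 in the other probe. C7orf31, MMRN2, RANBP1 and TMOD3 also had a called probe, and in TMOD3 it gave -0.64 against -4.45 in the member. The calls of the other probe of CYP2C34 and of 2 of the 3 other CYP2C49 probes were lost without MS fetus 632, and those of C7orf31, MMRN2 and 1 CYP2C49 probe without LW fetuses 484 and 469, with 8 probes called in either case. The dim C7orf31 probe (mean signal -5.62) gave -2.18. It also lost its call in the authors' values (-0.74), under normexp background correction (-0.38) and under quantile normalization (-1.80). The MMRN2 call was also lost under normexp, and that of TMOD3 with median centring of the arrays or with array weights. Median centring also removed the call of the other CYP2C34 probe (-3.51). With the slide as a block the CYP2C34 probe and 1 CYP2C49 probe lost their calls. That CYP2C49 probe (-3.38) had an adjusted p of 0.00998 at day 110 and lost its call under most settings.

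For most genes with a large member difference the other probes gave far smaller differences. The 12 other probes of CYCS differed by -0.33 to 0.58, against -4.26 in the member. The 10 other probes of BCAS2 differed by -0.71 to -0.09, all in the direction of the member, against -5.03. One of them (-0.61 ± 0.11, SE) passed the call at day 110 (adjusted p = 0.00256, limma) and missed it at day 90 (adjusted p = 0.0165). The 5 other probes of SELENOF differed by 0.08 to 0.38, against 6.11. The 4 other probes of PIP4K2A differed by 0.03 to 0.84, against -4.97. None of these probes was called at both days. Genes with the lowest ratio were NUB1, an adaptor of the ubiquitin-like system (0.51 in the other probe, -1.66 in the member), PAFAH2, a phospholipase (-0.86 and 2.94), GAB1, a docking protein of growth factor receptors (0.39 and -1.86), EYA3, a phosphatase and transcriptional coactivator (a median of 0.24 in 2 other probes and -1.85), and UBE4B, a ubiquitin ligase (0.28 and -2.29). The PAFAH2 probe was the one called in the opposite direction, a call lost with median centring and without MS fetus 532.

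The probe pairs printed above overlap in part of their bases. The second SELENOF probe covers bases 31 to 60 of the member and differs from it by A34T and A56T, with positions counted from the 5′ end of the member. It ran from 2.47 to 3.40 in LW and from 2.64 to 3.41 in MS at day 90, with overlap, while the member separated the breeds. The second CYCS probe covers bases 1 to 52 and differs by G9A, G11C and C21T. It ran from 2.75 to 4.28 in LW and from 3.42 to 4.71 in MS at day 90 and gave MS - LW differences of 0.61 and 0.56, against -4.90 and -3.63 in the member.

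RANBP1, a regulator of nuclear transport, allowed a finer comparison. Another probe has the same 60 bases as the member and gave -1.25 and -1.60, next to -1.28 and -1.65 in the member. The probe that shares 50 bases without a difference gave -0.18 (adjusted p = 0.629, limma) at day 90 and -0.59 (adjusted p = 0.00736) at day 110. An unnamed member shares 54 identical bases with a probe of GBP2, an interferon-induced GTPase. The member gave -2.15 and -2.26, and the GBP2 probe -0.18 (adjusted p = 0.739) and -0.57 (adjusted p = 0.0586). A second GBP2 probe, which shares 50 identical bases with this member, gave 0.45 (adjusted p = 0.135) and -0.08 (adjusted p = 0.831). An unnamed probe that shares 43 bases with it, with 4 differences, gave 4.22 (adjusted p = 1.02e-06) and 0.88 (adjusted p = 0.389), opposite to the member. Unlike in the printed pairs, a probe of FIBIN differed between the breeds at both days. It shares 49 bases, with 1 difference, with another unnamed member. That member gave -1.84 and -2.04, and the FIBIN probe -1.33 (adjusted p = 0.00451, limma) and -1.42 (adjusted p = 0.00101). In all, 22 members shared a stretch with some other probe of the array. What sets the probes of a pair apart in these fetuses was not tested, since no sequence of the fetuses was used here.

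Some genes were represented by several members. Of 9 such genes, 5 had at least 2 members that share no stretch with each other: ITIH4, MMRN2, ADTRP, ALPK1 and CMAH. Within ITIH4 2 members share 59 bases, and within MMRN2 2 members share 48. All 5 probes of ITIH4, a plasma protein that the liver secretes, were members and higher in MS, by 2.43 to 2.72 at day 90 and by 2.40 to 2.64 at day 110. The first of them ran from 2.59 to 3.41 in LW and from 4.92 to 5.97 in MS at day 90, and from 1.04 to 3.93 in LW and from -1.72 to 7.15 in MS at day 110. The lowest MS value of day 110 was that of fetus 632. Of 8 probes for liver markers, 0 were called between the breeds at both days. On the log2 scale their summed level was 3.45 in LW and 1.88 in MS at day 90 and 1.51 and 2.67 at day 110, and their part in the ITIH4 difference was not tested. Without that fetus its difference at day 110 was 3.73 ± 0.45 (SE), against 2.64 ± 0.63 with it. Across all members, 96 had a larger difference at day 110 without fetus 632, 13 of them by over 0.5.

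MMRN2, an endothelial matrix glycoprotein, had 4 members, all lower in MS, by -5.66 to -2.22 at day 90 and by -5.17 to -2.57 at day 110, while its remaining probe gave a mean of -1.36 over both days and was called. ALPK1, an innate immune kinase, had 2 members of -5.93 and -4.58 at day 90 and of -3.44 and -4.27 at day 110, while its remaining probe gave a mean of -0.38 over both days. FAM118A had 2 members that share 57 bases, with -2.99 and -2.85 at day 90. The genes ADTRP and CMAH had 2 members each, all higher in MS.

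The crosses lay between the purebreds, as the rule demanded, and their place in that interval depended on the values and the scale used. In the authors' log2 values the median position between LW (0%) and MS (100%) was 39% in LWMS and 35.0% in MSLW at day 90, and 48.2% and 44.7% at day 110. Among members higher in MS it was 65.8% in LWMS and 57.7% in MSLW at day 90, and among members lower in MS 32.3% and 29.1%. The crosses thus lay nearer to the higher breed on the log2 scale of the authors' values. On the linear scale of the scanner signals this held only for members lower in MS at day 90. Scale and source of the values changed together here, and their parts were not separated. On the linear scale of the scanner signals the same medians over all members were 48.5% and 41.3% at day 90 and 48.9% and 50% at day 110. By direction, the linear medians at day 90 were 49.2% in LWMS and 41.2% in MSLW for members higher in MS, and 48.2% and 41.7% for members lower in MS. All of these lay nearer to LW. At day 110 they were 39.3% and 44.4% for members higher in MS and 56.5% and 53.0% for members lower in MS, nearer to the lower breed. In the relative log2 signals, 144 of the 149 members kept this order of the 4 genotypes at both days.

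The change with age did not enter the rule. Averaged over the 4 genotypes, 20 members (13.4%) changed between day 90 and day 110, against 13.8% of all probes tested (limma, adjusted p of at most 0.01 and a log2 change of at least 0.5), so the share of members was close to the background. There were 7 members higher at day 110, against 6.07% of all probes, and 13 lower, against 7.71%. The median size of the change was 0.29 in the members and 0.20 over all probes tested. Of the 20, 9 were unnamed. Markers of cell types also moved with age. Lower at day 110 were 8 of 19 smooth muscle probes, 4 of 4 erythroid probes and 4 of 9 enteric neuron and glia probes. Higher were 5 of 16 immune probes and 1 of 8 goblet and endocrine probes. Of 23 enterocyte probes 8 were higher and 6 lower, and of 8 liver probes 2 were higher and 3 lower. No endothelium or pancreas probe was called. The part of these cell types in the age changes of the members was not tested.

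CPO, a carboxypeptidase of the brush border, fell most, by 4.11 ± 0.64 (SE; adjusted p = 4.67e-07). At day 90 it ran from -1.83 to 2.01 in LW and from 0.84 to 2.95 in MS, and at day 110 from -7.59 to 0.42 in LW and from -7.88 to 1.60 in MS, so that ages and breeds overlapped. NDST4, which sulphates heparan sulphate, fell by 2.21 ± 0.52 (adjusted p = 0.000500). DMGDH, a mitochondrial enzyme of choline breakdown, fell by 1.41 ± 0.44 (adjusted p = 0.00828), a call lost under several settings. BCL2L15 rose by 1.38 ± 0.21 (adjusted p = 1.93e-07) and CD46 by 1.21 ± 0.17 (adjusted p = 7.57e-08). The other CD46 probe rose alike, by 1.25 ± 0.14 (adjusted p = 1.46e-10), so that both stretches of this gene gave the breed and the age difference. UROS, an enzyme of haem synthesis, rose by 0.64 ± 0.17 in the member (adjusted p = 0.00235), and its 5 other probes gave 0.34 to 0.49, below the size required for a call. These 5 probes gave MS - LW differences of -0.04 to 0.10, against -3.40 in the member.

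The reciprocal crosses were compared to see whether the direction of the cross mattered, within the limit that the rule keeps both cross means inside the purebred interval. Averaged over both days, 5 members (3.36%) differed between LWMS and MSLW (limma, adjusted p below 0.05), against 1.62% of all probes tested. At day 90 alone no member passed (0.274% of all probes), although 17 had an unadjusted p below 0.05, and at day 110 alone 2 did (0.664%). The 5 were CYP2C34, GAB1 and 3 unnamed probes.

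CYP2C34 was higher in LWMS, from MS sows, than in MSLW, by 2.80 ± 0.74 (SE; adjusted p = 0.0351). LWMS ran from -3.61 to 1.83 (median 0.50) and MSLW from -5.55 to 1.53 (median -3.68) at day 90, and the medians at day 110 were 0.18 and -3.88. Both crosses overlapped, but the median of MSLW lay near that of MS (-4.96 at day 90) and the median of LWMS near that of LW (1.16). The other CYP2C34 probe differed in the same direction by 1.75 ± 0.49 (adjusted p = 0.0474). Without fetus 450 the difference of the member was 3.12 ± 0.73 (adjusted p = 0.0138). CYP2C49 differed by 1.54 ± 0.44 and missed the threshold with all fetuses (adjusted p = 0.0544), but passed it without fetus 450 (adjusted p = 0.0228). GAB1 was lower in LWMS (LWMS minus MSLW -1.03 ± 0.29, adjusted p = 0.0474), with medians of -2.12 in LWMS and -0.08 in MSLW at day 110, and it missed the threshold without fetus 450 (adjusted p = 0.0736). The other GAB1 probe gave -0.33 ± 0.13 (adjusted p = 0.17, limma), and the member missed the threshold under most settings. Over all settings the adjusted p ran from 0.00555 to 0.0571 for CYP2C34, from 0.00609 to 0.084 for CYP2C49 and from 0.0376 to 0.2 for GAB1. With the slide as a block CYP2C34 differed by 3.21 ± 0.76 (adjusted p = 0.014) and GAB1 missed the threshold (adjusted p = 0.0816). Without fetus 450, 4 members passed, against 1.24% of all probes, and without MS fetus 632, 9 members, against 2.27%.

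Pathways were read on 721 probes outside the members, from 7 gene lists. Named members belong only to the lists of xenobiotic and steroid metabolism (CYP2C42 and CYP2C49) and of the mitochondrial respiratory chain. The other lists, as written, held no member. The MHC class I gene HLA-E was not in the antigen presentation list, but its probe was a member, higher in MS by 3.90 at day 110. An unnamed member also shares 56 bases, with 1 difference, with a probe of the MHC class I gene SLA-1. Over all probes tested the shares called higher and lower in MS were those given above, 0.607% and 1.39%. In xenobiotic and steroid metabolism, 3 of 105 probes were lower in MS, all of them CYP2C49, and none was higher. In the mitochondrial respiratory chain, to which the members CYCS and ATP5B (a subunit of ATP synthase) belong, none of 122 other probes was called. In antigen presentation, 3 of 83 probes, of the MHC class I genes SLA-3 and SLA-8, were higher in MS, with differences of 1.06 to 1.5 at day 90. Probes of these genes can share signal among themselves. The glutamate transporter SLC1A1 was higher in MS at 2 probes, the ribosomal RPL12 was lower at 1, and interferon-stimulated genes gave none of 77. Of 102 probes for markers of 9 cell types, 0 were called at both days by limma, and 3 had an unadjusted p below 0.05 at both days with the same sign. The median MS - LW difference was 1.14 in 4 erythroid probes and -0.83 in 3 pancreas probes, and lay between -0.22 and 0.40 in the other marker lists. The part of these cell types in the differences of the members was not tested.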

How the data were processed

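Jejunum RNA of 63 fetuses, 1 array each on 8 slides, was labelled with Cy3 and read on a one-colour Agilent array of 60-base probes. Per the file headers, the deposited scanner files hold spot intensity values from Agilent Feature Extraction 10.10.1.1, corrected by that software for spatial trends in the background. The authors' deposited value table holds log2 median signals after quantile normalization, with array medians of 8.61, and its direction and scale were checked against the scanner files. The table chose the members. All other values are log2 of the processed signal minus the 75th percentile of the array, with outlier-flagged spots and 1319 control spots of 61625 left out and 0 saturated spots. A probe was tested when 1 or more groups had it well above background in 75% or more of their arrays, which 40515 of 60305 probes met.

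The model, run in limma 3.58.1 (R 4.3.3; Python 3.11.15 for text handling), gave 1 mean to each of 8 groups over all these probes, with Benjamini-Hochberg adjustment, and was tested on simulated data. Calls for breed and age needed an adjusted p of at most 0.01 and a log2 difference of at least 0.5, those between crosses an adjusted p below 0.05. P-values set a difference between group means against the spread between fetuses within the 8 groups, and not against the spread between litters. A fold given as at least uses, for the dimmer group, the higher of its own signal and the lowest signal well above background. Array depth has no read count, and the number of arrays limits the precision.

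Gene names came from the array's annotation (16190 probes), RefSeq accessions (11557) or the study's list (1377), and 31182 probes stayed unnamed. Genes are named for the largest member differences, several members per gene, extreme ratios of other probes, the largest age changes, reciprocal calls and the threshold. HLA, CYP2C and SLA probes may share signal. The members, lists and rules were chosen with earlier results of these data known. One selected probe and 1 result of a pathway list are not reported here. Alternatives covered background correction, normalization, filters, slides, array weights and left-out fetuses.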

Additional observations from a re-analysis of the deposited data

Results flagged for a closer look

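Among 96 sets of fetuses of the same breed and day at 12 leading members, 20 had 1 fetus far from the others. The criterion flags about 1 in 20 independent sets by chance, and these sets are not independent, since the same fetuses recur across the members. At AADAT, LW fetus 484 lay at -4.26 (next -6.56), LW fetus 469 at -4.97 (next -6.65) and MSLW fetus 450 at -7.92 (next -1.56), in relative log2 signal. At SELENOF, fetus 450 lay at -7.54 (next 0.03), LW 469 at -0.75 and MS 632 at 0.32. At BCL2L15, fetus 450 lay at -1.29 (next 0.93) and LWMS 609 at 2.40. At HRASLS5, LW 484 lay at -3.29, LW 469 at -3.83 and MS 632 at -6.62 (next -2.61). At CYP2C42, MS 632 lay at -6.62 and LWMS 405 at 0.71.

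At CYCS, MSLW fetus 902 of day 90 lay at -4.69 (next 1.89), MSLW 476 of day 110 at -0.15 (next 3.12) and LW 484 at 4.79. At MTFP1, MS 532 lay at -2.24 (next -4.37). At CYP2C34, MS 409 lay at 0.85 (next -4.98), and at CYP2C49, MSLW 560 lay at 2.34 (next -0.02). At PIP4K2A, MS 401 lay at -1.07 (next -3.68).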

How the results depend on the processing

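The count of members that changed with age was 20, with 11 under normexp background correction and 11 to 28 over all settings, of which 11 to 20 were among the 20. Of all probes tested, 5583 changed with age in the main fit, 3176 under normexp and 6598 with array weights. The count that differed between the reciprocal crosses was 5, against 1.62% of all probes tested. It was 3 under quantile normalization (1.31% of all probes) and 2 with no filter on dim probes (0.703%). It was 12 with array weights, which called 1925 of all probes (4.75%) and kept 3 of the 5. Leaving out a fetus, chosen after seeing the data, gave 4 without MSLW fetus 450 (3 of the 5), 9 without MS fetus 632 (5 of the 5) and 6 without MS fetus 532 (5 of the 5). The shares of all probes were then 1.24%, 2.27% and 1.77%. Applied to the scanner values the rule selected 95 of the 149 members again, and 96 after quantile normalization. The other 52 counts stayed within 1.5 times, with 8 to 11 other probes of the same genes called and 136 to 145 members in the order of the 4 genotypes. No result reversed its direction, but 46 values of single probes lost their call and 200 kept it. The causes were not tested. No paired analysis was possible because fetus numbers are not shared between groups and the labels do not tie a fetus to its sow. The slide was fitted as a block. Members near background, 12 of 149 at each day, have only a lower bound on their fold.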
